A study of Mus musculus with 16 samples.

Results

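The 36 genes described here code for the uptake and breakdown of fatty acids and for ketone body synthesis, together with the regulators and switch enzymes of that program. They were chosen by symbol from a fixed list, and all 36 were found among the 25054 gene entries of the counts table. The study sequenced RNA of newborn mouse pups on the C57BL/6J background that were live wild type (WT), live heterozygous (Het), dead heterozygous or dead null (Null) for a Man1a2 deletion of exon 2, a gene coding for an N-glycan-trimming mannosidase. The heterozygous parents of all pups received N-acetylcysteine (NAC, a glutathione precursor, 1 g/kg body weight) or water alone (placebo) from 1 week before breeding until delivery. Pups were watched every 8 h for 24 h, dead ones were taken when found, and survivors were killed at the end, so that survival cannot be told apart from age and feeding at harvest. The paper reports that all null pups died shortly after birth. Genotype among the dead pups therefore cannot be told apart from age and feeding either. Each of the 16 libraries (4 pup groups, 2 treatments, lung and liver as labelled) is 1 pool of RNA from 3 experiments, or 2 for dead Het pups, so each group has a single library and p-values below measure the spread between pooled libraries.

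In 9 of the 16 libraries, the RNA did not hold the tissue of their label alone. Libraries were therefore described by their marker content, taken from albumin (Alb, the main hepatocyte secretory product) and surfactant protein C (Sftpc, made by alveolar type II cells). Liver content meant at least 50000 Alb CPM (counts scaled to the size of the library), and lung content meant at least 1000 Sftpc CPM with Alb under 1000. Liver content was found in 8 libraries, 4 of them labelled lung, and lung content in 7, 4 of them labelled liver. The dead Null placebo library labelled lung held both and was kept apart as mixed. The liver-content libraries were live WT placebo (labelled lung), live WT NAC (labelled liver), live Het placebo (labelled lung), live Het NAC (labelled liver), dead Het placebo (labelled liver), dead Het NAC (labelled lung) and the 2 dead Null NAC libraries, labelled liver and lung. The lung-content libraries were live WT placebo (labelled liver), live WT NAC (labelled lung), live Het placebo (labelled liver), live Het NAC (labelled lung), dead Het placebo (labelled lung), dead Het NAC (labelled liver) and dead Null placebo (labelled liver). No dead Null placebo library had liver content and no dead Null NAC library had lung content. These classes are not the study's own groups, since they rest on measured marker genes. Depth ran from 7236865 to 16107749 counts per library, with ribosomal Rn45s taking 0.85% to 26.19% of them. Man1a2 lay between 29.7 and 75.4 CPM, a gene-level value that does not separate exon 2 and so checks no genotype label.

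At birth the pup loses the glucose supply of the placenta and turns to milk fat. Fatty acids are activated to acyl-CoA, carried into mitochondria by the carnitine shuttle and shortened in cycles of dehydrogenation, hydration, a further dehydrogenation and thiolysis. The liver turns much of the resulting acetyl-CoA into ketone bodies, and the nuclear receptor PPARalpha (Ppara) drives many of these genes there, usually through a direct repeat of AGGTCA spaced by a single base.

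Promoter sequences were taken from RefSeq (GRCm38.p6) for 30 of the 36 genes, as 250 bases before to 50 after the start. The exact direct repeat, 2 copies of AGGTCA with 1 base of any kind between, searched on both strands, was in none of the 30 and in 0.0481% of all 27025 promoters. A looser form, 2 copies of AGGNCA with 1 base between, was in 0.451% of all promoters and in that of a single gene of the set, Fabp1, the cytosolic liver fatty acid binding protein. Its match, on the other strand, ended close to the gene's start and stands in capitals in the stretch chr6:71199629-71199826 (plus strand):

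Fabp1: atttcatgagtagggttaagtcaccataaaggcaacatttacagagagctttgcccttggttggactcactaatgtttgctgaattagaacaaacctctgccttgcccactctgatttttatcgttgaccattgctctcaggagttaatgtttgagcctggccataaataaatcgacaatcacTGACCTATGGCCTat

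Hadha and Hadhb code for the alpha and beta subunits of the mitochondrial trifunctional protein and start head to head on chromosome 5, with 85 bases between them. That stretch, chr5:30155163-30155247 (plus strand), is shown because the pair shares it, and its match to the GC-box letters GGGCGGG is in capitals:

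Hadha-Hadhb: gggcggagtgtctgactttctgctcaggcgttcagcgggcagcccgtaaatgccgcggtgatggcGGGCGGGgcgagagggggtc

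GGGCGGG was in the promoters of 19 of the 30 genes (63.3%) and in 27.9% of all promoters. CCAAT was in 15 of the 30 against 41.1%, and TATAAA was in 2, Fgf21 and Fabp1 (6.67%), against 15.7%, each searched on both strands. As examples from the lung-content NAC comparison, stretches just before Pdk4, which had the largest change there, Acot2, which was also called, and its neighbouring paralog Acot1 are printed next, with matches to GGGCGGG and CCAAT in capitals: Pdk4 at chr6:5496310-5496528 (minus strand), Acot2 at chr12:83987611-83987860 and Acot1 at chr12:84009252-84009489 (both plus strand).

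Pdk4: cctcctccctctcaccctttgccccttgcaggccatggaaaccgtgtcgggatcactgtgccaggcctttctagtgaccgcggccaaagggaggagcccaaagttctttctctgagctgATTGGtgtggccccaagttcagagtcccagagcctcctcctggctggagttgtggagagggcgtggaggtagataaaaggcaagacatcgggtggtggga
Acot2: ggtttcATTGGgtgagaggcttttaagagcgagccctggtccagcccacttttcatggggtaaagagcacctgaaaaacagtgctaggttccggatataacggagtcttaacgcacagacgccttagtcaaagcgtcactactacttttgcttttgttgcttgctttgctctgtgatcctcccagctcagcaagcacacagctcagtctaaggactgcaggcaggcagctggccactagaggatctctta
Acot1: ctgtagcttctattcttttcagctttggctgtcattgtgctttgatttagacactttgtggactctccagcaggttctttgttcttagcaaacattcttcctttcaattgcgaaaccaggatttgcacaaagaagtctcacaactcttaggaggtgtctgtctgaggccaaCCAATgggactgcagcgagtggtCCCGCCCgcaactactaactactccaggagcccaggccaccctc

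Pdk4 had 1 CCAAT match, read as ATTGG on the printed strand. Acot2 also had 1, while Acot1 had 1 of each motif. A match is a run of letters, and no binding was measured.

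Of the 36 genes, 31 were at least 2-fold higher on average in liver-content than in lung-content libraries, against 23.8% of the 14078 genes at or above a mean of 1 CPM in the 15 libraries of both classes. Only Cd36, the fatty acid translocase of the plasma membrane, was at least 2-fold lower, against 22.1% of genes. Levels here and below are CPM after TMM scaling, a correction for library composition. Every liver-content library lay above every lung-content library for 30 of the 36 (26.6% of all genes tested did so), and Cd36 was below in every library (23.2%). The 30 include Fgf21, whose mean was under the 1 CPM that those shares require. The classes overlapped for Angptl4, Acot1, Acot2, Vnn1 and Pdk4. The contrast is a description, since Alb and Sftpc chose the classes.

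**Figure D1:**
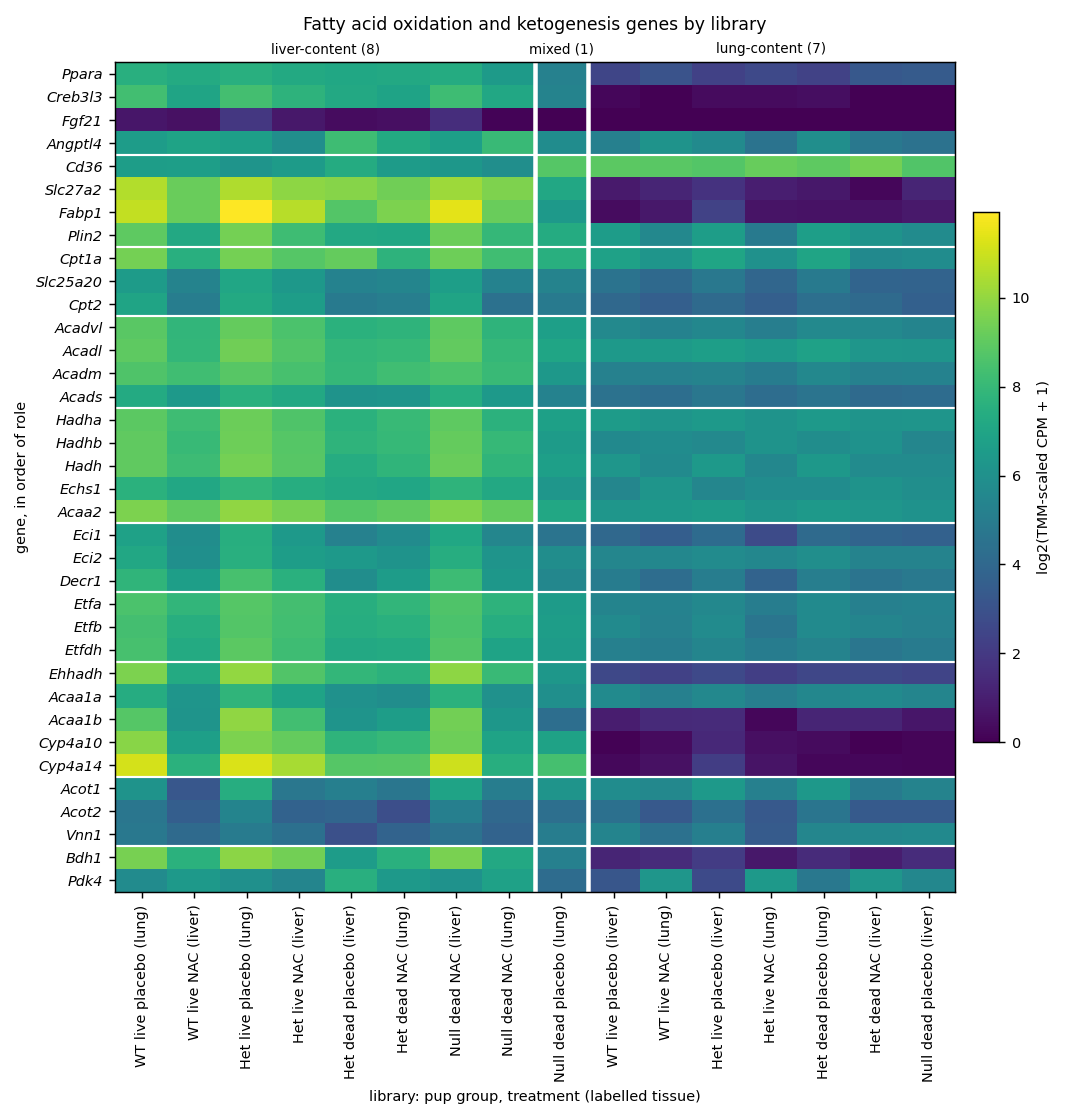
Heat map of log2(scaled CPM + 1) for the 36 genes (vertical axis, in role order) in the 16 libraries (horizontal axis), ordered as 8 liver-content, 1 mixed and 7 lung-content. Most genes are brighter in the liver-content columns, Cd36 is brighter in the lung-content columns, and the mixed column differs from both, with 343 CPM of Cyp4a14 and 433 of Cd36.

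Among the regulators, Ppara had 89.2 to 186 CPM in the liver-content libraries and 3.9 to 9.8 in the lung-content ones. Creb3l3, a hepatocyte transcription factor released by cleavage from the endoplasmic reticulum that works with PPARalpha on Fgf21, had 119 to 326 CPM and at most 0.339 in lung content. Fgf21, the fasting hormone of the liver, was close to the detection limit. It had 1 to 36 counts per liver-content library, with 7 of 8 above 3 counts, and 0 counts in all 7 lung-content libraries, where 3 counts, the most a count of 0 allows, equal 0.159 to 0.418 CPM (counting error only). Angptl4, a secreted inhibitor of lipoprotein lipase, was the regulator whose classes overlapped, at 58 to 294 CPM in liver content and 21.3 to 68.1 in lung content.

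Uptake and binding genes included the highest of the 36 in each class. Per kilobase of exon, Fabp1 stood first of the 36 in liver content, with a median of 2129 CPM per kilobase. Acaa2, the last-step thiolase of mitochondrial oxidation, came next at 415, then the omega-hydroxylase Cyp4a14 at 346 and the very-long-chain acyl-CoA synthetase Slc27a2 at 243. The order of the middle ranks carries little weight, because the range over libraries reached 13.9-fold for Cyp4a14, 2.27-fold for Acaa2 and 2.6-fold for Slc27a2. Fgf21 was last, at 0.577 CPM per kilobase. In lung content Cd36 stood first at 134 CPM per kilobase, followed by Acaa2 at 50.8 and the long-chain acyl-CoA dehydrogenase Acadl at 43.6.

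The mitochondrial core was present in both classes. In scaled CPM, the 4 acyl-CoA dehydrogenases (Acadvl, Acadl, Acadm and Acads, for very long, long, medium and short chains) had medians of 301, 332, 326 and 115 in liver content and 45.3, 87.3, 37.2 and 18.6 in lung content. Genes of hepatic specialities were close to 0 in lung content. Median levels there were 1.36 CPM for the peroxisomal thiolase Acaa1b, 0.254 for Cyp4a10, 0.212 for Cyp4a14 and 1.78 for Bdh1, the enzyme that interconverts acetoacetate and 3-hydroxybutyrate. Their liver-content medians were 209, 406, 899 and 431 CPM. The highest lung-content values of Fabp1 (4.08 CPM), Cyp4a14 (3.47) and Bdh1 (3.3) came from the live Het placebo library, whose summed hepatocyte markers, at 194 CPM, were near the top of a range of 20 to 199. In live Het NAC, at the top with 199 CPM, the same genes had 0.557, 0.557 and 0.696 CPM. In these tissue pools, fewer cells of a type and less RNA per cell cannot be told apart.

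Within liver content the 36 genes did not vary independently. For 29 of the 36, the 4 highest libraries were the same: live WT placebo, live Het placebo, live Het NAC and the dead Null NAC library labelled liver. Angptl4 and Pdk4, the kinase that shuts down pyruvate dehydrogenase, ran the other way, with those 4 libraries lowest. Over the 13290 genes tested in liver content, 18.3% had the same 4 libraries highest and 13.4% had them lowest. The 29 include Fgf21, which was under the expression filter and so not among the genes tested. The live Het placebo library was the highest of all for 30 of the 36. This order is a description, with no test, because it was read from the values themselves. The 4 libraries were 3 from live and 1 from dead pups, and the other 4 were 1 from live and 3 from dead pups.

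The carnitine shuttle shows the order. Cpt2, the inner-membrane carnitine palmitoyltransferase, had 126, 151 and 100 CPM in live WT placebo, live Het placebo and live Het NAC, but 31.8 in live WT NAC. In the dead libraries it had 28.8 CPM (Het placebo), 33.2 (Het NAC), 126 (Null NAC, labelled liver) and 20.9 (Null NAC, labelled lung). The fourth live library was thus with the low dead ones and 1 dead library with the high live ones. Cpt1a, the rate-setting outer-membrane enzyme, differed from Cpt2 in the dead Het placebo library, where it had 550 CPM, against 208 in dead Het NAC and 183 in live WT NAC. Slc25a20, the carnitine-acylcarnitine carrier, had 133 CPM in live Het placebo, 81.9 to 101 in the other 3 high libraries and 38.2 to 42.6 in the remaining 4.

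The dehydrogenases, thiolase and electron carriers of the mitochondrial cycle followed with smaller steps. Acadl had 494, 642 and 411 CPM in live WT placebo, live Het placebo and live Het NAC and 240 in live WT NAC, then 239, 254, 539 and 245 in dead Het placebo, dead Het NAC and the dead Null NAC libraries labelled liver and lung. In the same order Acaa2 had 753, 984, 709 and 521 CPM in live and 433, 520, 816 and 549 in dead pups. Etfdh, which passes electrons from the flavoprotein to ubiquinone, had 345, 489, 298 and 158 CPM in live and 144, 157, 407 and 119 in dead pups. Live and dead values overlapped for each of them. Etfa, the alpha subunit of the flavoprotein, ran from 178 to 443 CPM, and the trifunctional subunits Hadha and Hadhb from 195 to 612 and from 215 to 621.

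Of the enzymes for unsaturated chains, Eci1, the mitochondrial enoyl-CoA isomerase, had 111, 176, 85.9 and 56.1 CPM in the live libraries in that order and 37.1, 53, 137 and 42.8 in the dead ones. Its relative Eci2, found in peroxisomes as well, ran from 60.6 to 181 CPM, with the same 4 libraries highest for both.

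Peroxisomal and omega-oxidation genes had wide ranges. Cyp4a14 had 2315, 2436 and 1338 CPM in live WT placebo, live Het placebo and live Het NAC, and 195 in live WT NAC. In dead pups it had 439 (Het placebo), 460 (Het NAC), 2091 (Null NAC, labelled liver) and 176 CPM (Null NAC, labelled lung). Acaa1b spanned 70.6 to 998 CPM, 14.1-fold, and Ehhadh, the bifunctional peroxisomal enzyme, 156 to 1034 CPM. The range of Acot1, the cytosolic acyl-CoA thioesterase, was the widest after Fgf21 among the 36, at 8.51 to 171 CPM (20.1-fold). At the other end, Echs1, the short-chain enoyl-CoA hydratase, varied 1.72-fold and Acadm 1.82-fold.

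Bdh1 stood for the ketone step. It had 722, 923 and 666 CPM in live WT placebo, live Het placebo and live Het NAC, and 196 in live WT NAC. In dead pups it had 94.4 (Het placebo), 190 (Het NAC), 749 (Null NAC, labelled liver) and 146 CPM (Null NAC, labelled lung). Fabp1 had 1824, 3894, 1587 and 597 CPM in the same order of live libraries and 420, 767, 2732 and 579 in the dead ones. For both genes the live and the dead values overlapped.

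Pdk4 and Angptl4 gave the opposite picture. Pdk4 had 52.9, 63.2, 41.8 and 85.7 CPM in live WT placebo, live Het placebo, live Het NAC and live WT NAC. In dead pups it had 186 (Het placebo), 85.9 (Het NAC), 65.8 (Null NAC, labelled liver) and 111 CPM (Null NAC, labelled lung). Angptl4 had 94.5, 104, 58 and 120 CPM in the live libraries in that order and 294, 153, 104 and 268 in the dead ones. Highest for both was the dead Het placebo library, and the live and dead ranges overlapped for both.

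**Figure D2:**
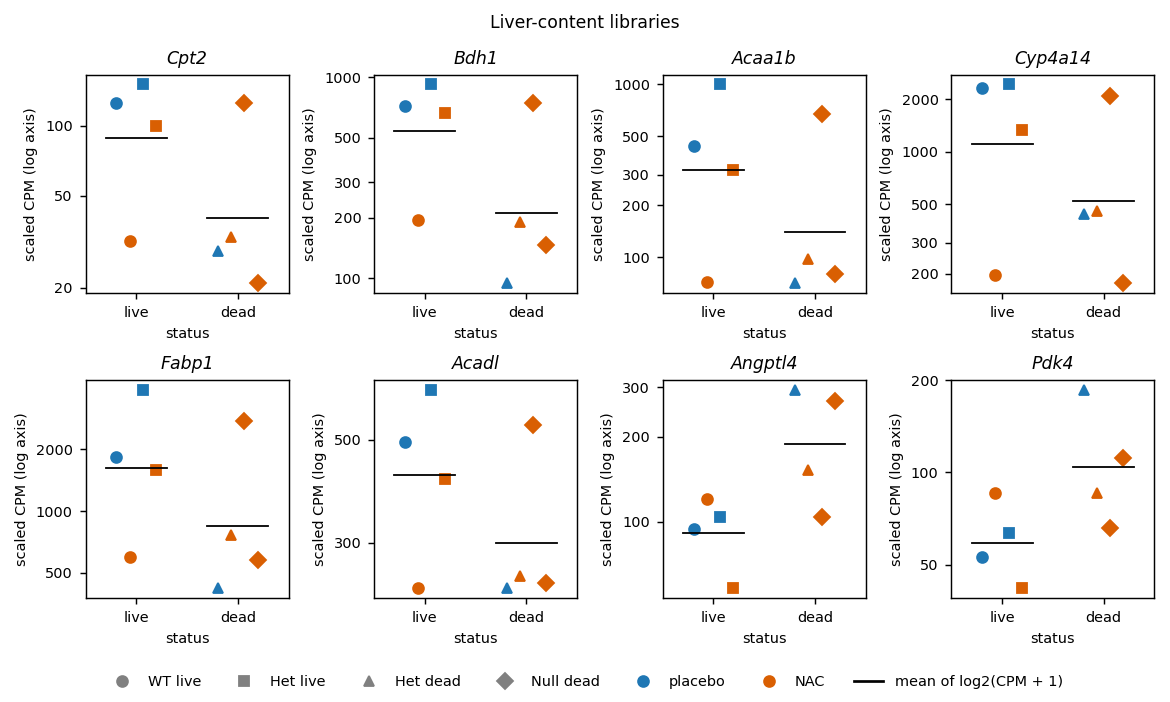
Scaled CPM (log axis) of 8 genes in the 8 liver-content libraries, split into live and dead pups; marker shape gives the pup group, blue is placebo, orange is NAC, and the black line is the mean on the log2(CPM + 1) scale. In each panel live and dead libraries overlap, for example 31.8 to 151 against 20.9 to 126 CPM for Cpt2.

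Does expression of the program differ between live and dead pups? Live libraries were WT or Het and dead ones Het or Null. Genotype was thus mixed with survival here, in lung content and in the test of the difference between contents. In the 4 live against the 4 dead liver-content libraries, with treatment as a second term, edgeR's quasi-likelihood test called none of the 35 genes tested at an adjusted p under 0.05 and none of the 13290 genes overall (0.0%). Unadjusted p was under 0.05 for 2 of the 35 (5.71%), against 678 genes in all (5.1%), and DESeq2 called 0 of the 35 and 45 genes in all. The log2 fold change, live over dead, was positive for 29 of the 35, with a median of 0.41 beside 0.01 over all genes. Angptl4 had -1.19 (SE 0.35, 95% interval -1.98 to -0.4, adjusted p = 0.805 by edgeR) and Pdk4 -0.91 (SE 0.33, interval -1.66 to -0.16, adjusted p = 0.805 by edgeR). For Bdh1 the estimate was 1.13 with an interval of -0.82 to 3.08, and for Cpt2 0.82 with -0.9 to 2.54, both intervals reaching across 0. No gene of the set had every live library above, or every live library below, every dead one (1.11% and 1.45% of all genes). The median turned to -0.07 without dead Het placebo, and was 0.83 without the dead Null NAC library labelled liver and 0.82 without live WT NAC. Among the 4 libraries whose label and content were both liver, 2 from live pups (both NAC) and 2 from dead pups, it was -0.74, with 0 called.

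**Figure D3:**
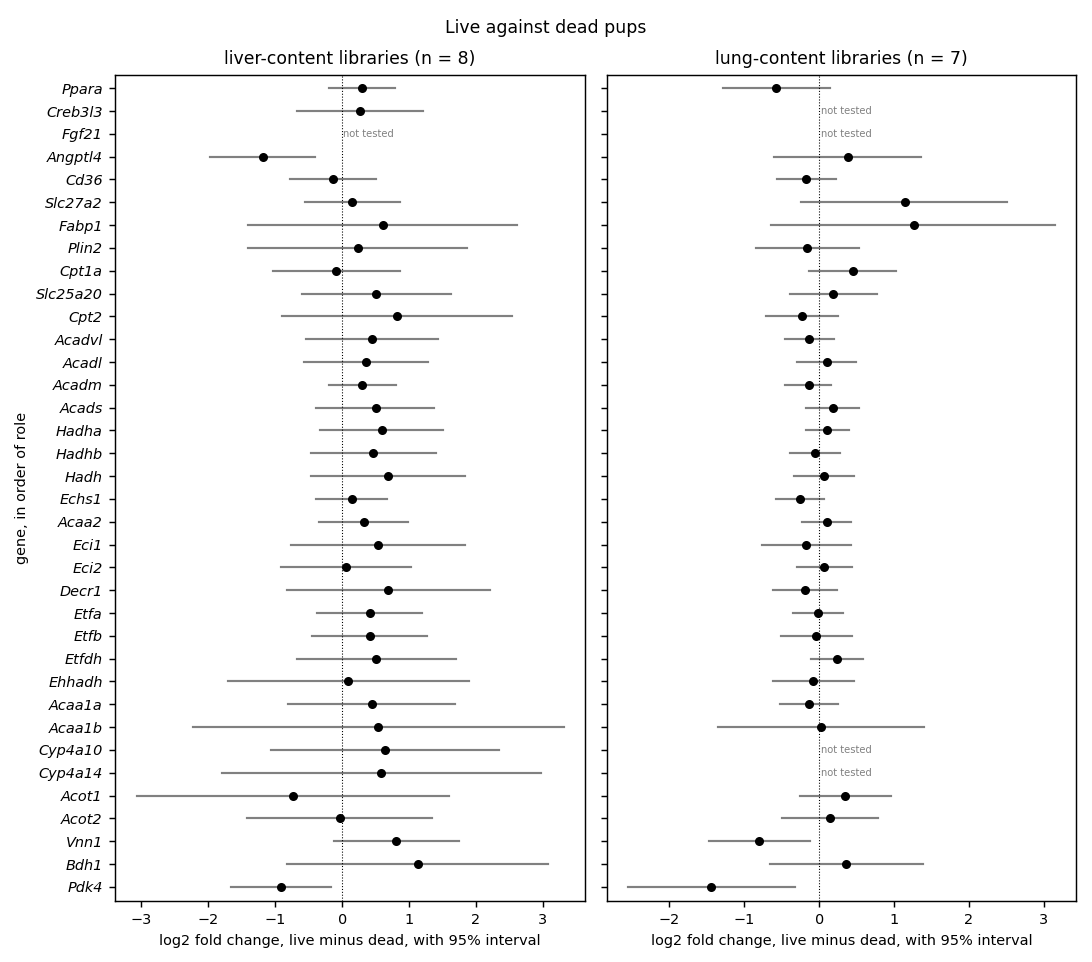
Log2 fold change, live over dead, with 95% interval for each gene in liver-content (8 libraries, left) and lung-content (7 libraries, right) libraries; red would mark an adjusted p under 0.05, and genes under the expression filter are marked as not tested. Most liver-content estimates lie right of 0 with intervals across it, apart from Angptl4 and Pdk4, and the lung-content estimates lie on both sides.

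Separating the pup groups gave larger estimates, with no gene called by edgeR in liver content. In dead Het against live Het (2 libraries each), 0 of 35 genes and 0.0% of all genes were called. Unadjusted p was under 0.05 for 12 of the 35 (34.3%), against 1112 genes in all (8.37%), and DESeq2 called 0 of the 35 and 56 in all. Of the 35, 32 were lower in dead Het, with a median log2 fold change of -1.13 (all genes, -0.02), or -0.67 without dead Het placebo. Bdh1 had -2.38 (interval -4.63 to -0.12) and Hadh, the 3-hydroxyacyl-CoA dehydrogenase, -1.51 (-2.79 to -0.22). Plin2, the coat protein of lipid droplets, had -1.6 (-2.95 to -0.25). Angptl4 and Pdk4 were higher in dead Het, by 1.45 (0.19 to 2.72) and 1.34 (0.19 to 2.5). Each of these 5 had an adjusted p of 0.576 by edgeR.

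In dead Null against dead Het, which shares the dead Het libraries with the comparison before and in which both Null libraries were NAC, 0 of 35 genes and 0.0% of all genes were called by edgeR. Genotype in this comparison cannot be told apart from age and feeding at harvest. Unadjusted p was under 0.05 for 6 of the 35 (17.1%), against 1235 in all (9.29%), and 32 of the 35 were higher in Null, with a median of 1.04 (all genes, 0.09). It was 0.23 without the Null library labelled liver, 1.56 without the one labelled lung and 1.68 without dead Het NAC. DESeq2 called 233 genes in all and 2 of the 35: Acot2, the mitochondrial acyl-CoA thioesterase (2.03, adjusted p = 0.00655 by DESeq2), and Plin2 (1.99, adjusted p = 0.0292 by DESeq2). By edgeR their adjusted p were 0.277 and 0.398. Live Het against live WT gave 0 of 35 (0.0% of all genes), with none of the 35 at an unadjusted p under 0.05 against 212 genes in all, 0 of the 35 and 6 in all by DESeq2. The median was 0.53, or 0.93 without live WT placebo and 0.18 without live WT NAC.

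The 2 dead Null NAC libraries carried the same labels for pup group and treatment, and both had liver content. They nevertheless stood on different sides of the order. Of the 36 genes, 25 were at least 2-fold higher in the one labelled liver (12.4% of all genes) and 1, Angptl4, at least 2-fold lower (10.4%). The median log2 difference was 1.25, beside 0.09 over all genes. The largest were Cyp4a14 (2091 against 176 CPM), Acaa1b (677 against 79.6) and Cpt2 (126 against 20.9). This difference has 1 library on each side and no test. The medians of dead Het against live Het (-1.13) and of dead Null against dead Het (1.04) are fitted values from 2 libraries on each side. The second of those fits holds these same libraries, so the sizes are not directly comparable. That both belong to the same group rests on their labels. They counted as separate NAC libraries in the liver-content fits, and whether they came from the same pups is not known.

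Some summed marker lists also moved with the order of the liver-content libraries, and others did not. Summed cardiac and skeletal muscle markers were 11.8, 37.5, 12.5 and 17 CPM in live WT placebo, live Het placebo, live Het NAC and the dead Null NAC library labelled liver. In live WT NAC, dead Het placebo, dead Het NAC and the dead Null NAC library labelled lung they were 551, 95.1, 244 and 545 CPM. Summed erythroid markers were 24287, 9208, 41984 and 10434 CPM in the first 4 and 59967, 47373, 54402 and 42011 in the others. Summed hepatocyte markers were 194405, 168495, 185703 and 138050 CPM in the first 4 and 204362, 211440, 185565 and 233182 in the others. Neutrophil and myeloid progenitor markers (8 genes) were 2713, 2661, 3962 and 2980 CPM in the first 4 and 5073, 3938, 4634 and 5077 in the others. Adipose markers (8 genes, 6 of them under 1 CPM throughout) were 0.635, 0.388, 1.21 and 0.556 CPM against 1.11, 16.9, 7.46 and 5.74. The first 3 lists held 10 genes each, of which 8 were found for erythroid cells, and Myh6, Myl7, Tnni3 and Nppa of the muscle list were under 1 CPM in every liver-content library. Their part in the order was not tested.

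Is the program changed by NAC in liver content? With 5 NAC and 3 placebo libraries and status as a second term, 0 of 35 genes were called and 0.0% of all genes. Unadjusted p was under 0.05 for none of the 35, against 273 genes in all (2.05%), and DESeq2 called 0 of the 35 and 1 in all. No gene of the set had every NAC library above (0.918% of all genes) or every NAC library below (0.572%) every placebo library. Of the 35 estimates, NAC over placebo, 33 were negative, with a median of -0.28 (all genes, 0). The lowest unadjusted p belonged to Cpt1a, at -0.9 (interval -1.87 to 0.07). The median was 0.12 without live WT NAC, -0.02 without live Het placebo, -0.47 without the dead Null NAC library labelled liver and -0.92 without dead Het placebo, and 0.09 with the mixed library added. Among the 4 libraries whose label and content were both liver it was 1.35, but there the placebo arm was the dead Het library alone. With pup group in place of status it was -0.51, all 35 were negative, 0 were called and 4 (11.4%) had an unadjusted p under 0.05, against 653 genes in all (4.91%).

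By pup group, the NAC library was at least 2-fold lower than the placebo library for 20 of 35 genes in live WT (3.59% of all genes), for 8 of 36 in live Het (0.851%) and for 3 of 35 in dead Het (2.03%), and at least 2-fold higher for none of them in any (5.32%, 2.62% and 2.01%). The medians were -1.1, -0.65 and 0.11. Acot1 was lower with NAC in each, at 68.9 and 8.51 CPM for placebo and NAC in live WT, 171 and 25.5 in live Het and 33.9 and 24.8 in dead Het. Bdh1 was not, at 722 and 196, 923 and 666, then 94.4 and 190 CPM. Of the 35 genes tested, 10 were lower with NAC in all 3 pairs (18.3% of all genes) and none higher (17.3%), each pair being 1 library against 1 with no test.

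**Figure D4:**
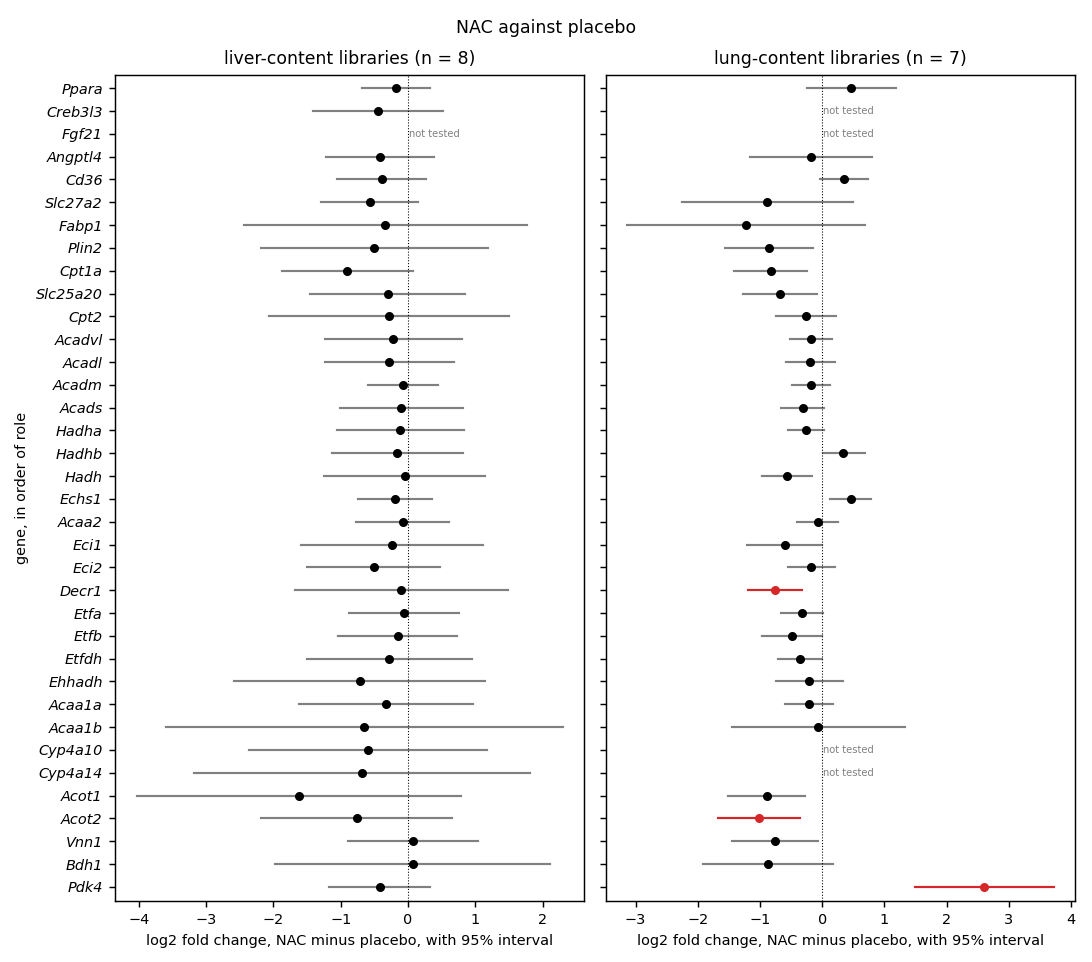
Log2 fold change, NAC over placebo, with 95% interval for each gene in liver-content (8 libraries, left) and lung-content (7 libraries, right) libraries; red marks an adjusted p under 0.05. Red appears for Pdk4, Decr1 and Acot2 in lung content and for none in liver content.

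In lung content, 3 of the 32 genes tested (9.38%) were called between the 3 NAC and 4 placebo libraries, beside 13.9% of all 13659 genes. The share was below that of genes at large in this fit. By DESeq2 it was 8 of 32 (25%) beside 20.1%, and with no filter on the mean 8 of 35 (22.9%) beside 14.3%. Pdk4 rose, and Decr1, the 2,4-dienoyl-CoA reductase for unsaturated chains, and Acot2 fell. Unadjusted p was under 0.05 for 14 of the 32 (43.8%), against 34.9% of all genes, and the median was -0.29 beside -0.02.

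Pdk4 (chr6:5483351-5496309) had 8.16, 5.38, 26.3 and 45.3 CPM in the placebo libraries, in the order of live WT and live Het, then of dead Het and dead Null pups. With NAC it had 75.6, 83.1 and 75.5 CPM in live WT, live Het and dead Het. Every NAC library was above every placebo library (14.6% of all genes), and within placebo the live libraries were the lowest. The log2 fold change was 2.6 (SE 0.49, interval 1.49 to 3.72, adjusted p = 0.0232 by edgeR).

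Decr1 (chr4:15917240-15945507) had 31.4, 32.1, 33.8 and 27.2 CPM in the placebo libraries in that order and 18.4, 12.7 and 23.3 with NAC. Its change was -0.76 (SE 0.2, interval -1.2 to -0.32, adjusted p = 0.0382 by edgeR), and all NAC libraries were below all placebo libraries. The same held for Hadh and Hadha, against 15.2% of all genes. Acot2 (chr12:83987861-83993873) had 20, 20.1, 23.8 and 9.24 CPM with placebo and 9.15, 8.91 and 9.39 with NAC, so that the dead Null placebo library lay inside the NAC range. Its change was -1.02 (SE 0.29, interval -1.68 to -0.36, adjusted p = 0.0497 by edgeR), just inside the threshold. Acot2 shares 17.1% of its 100-base windows with Acot1, and reads from both may have been divided between them.

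Just outside the threshold were Acot1 at -0.89 (adjusted p = 0.0573 by edgeR), Cpt1a at -0.83 (0.0615), Hadh at -0.57 (0.0616) and Echs1 at 0.46 (0.0629). Cpt1a had 114, 128, 126 and 54.1 CPM with placebo and 74.4, 64.3 and 49.4 with NAC. Here too the dead Null placebo library, the only Null library in lung content, was with the NAC libraries. Plin2 was also lowest of the placebo libraries in dead Null, at 95.9, 99, 101 and 53.2 CPM with placebo and 46.6, 28.7 and 69 with NAC.

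**Figure D5:**
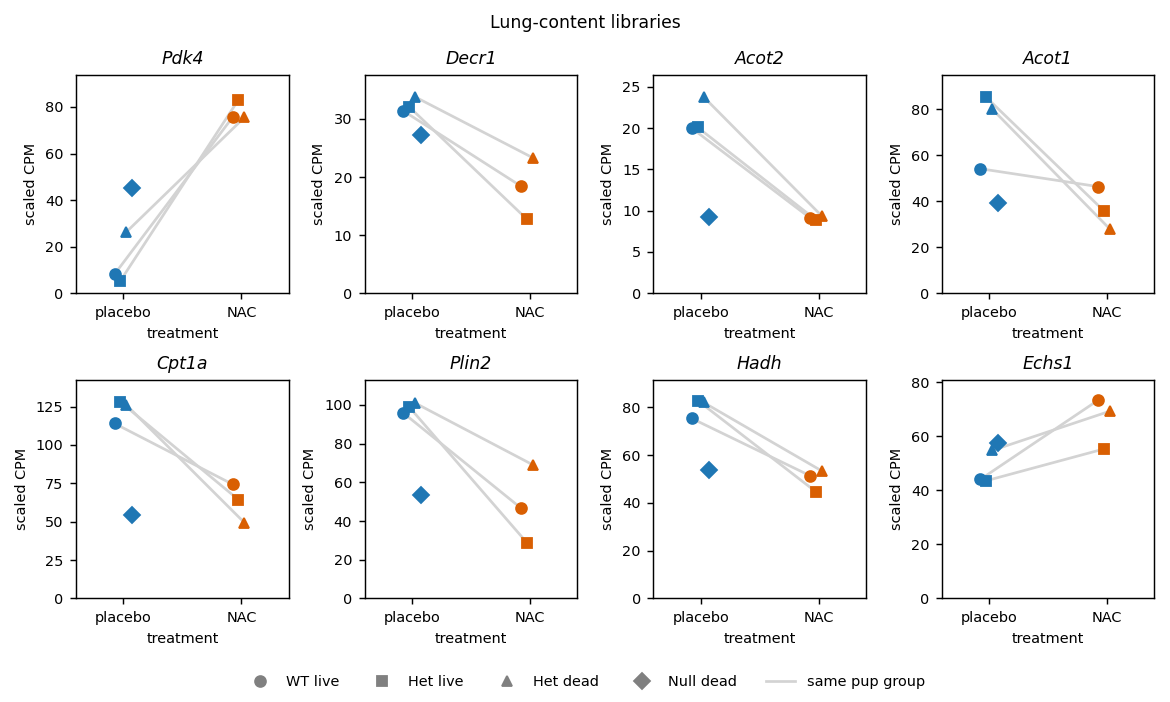
Scaled CPM (axis from 0) of 8 genes in the placebo and NAC lung-content libraries; grey lines join libraries of the same pup group. Pdk4 is higher in each NAC library than in any placebo library, Decr1 and Hadh are lower, and the unpaired dead Null placebo point is low for Acot2, Cpt1a and Plin2.

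With pup group in place of status, which compares NAC and placebo within live WT, live Het and dead Het, 10 of the 32 genes (31.2%) were called, beside 26.4% of all genes. Pdk4 (2.83) and Echs1 (0.48) were higher. Lower were Acot2 (-1.21), Plin2 (-1.11), Acot1 (-1), Cpt1a (-0.98), Decr1 (-0.87), Slc25a20 (-0.84), Hadh (-0.68) and Etfb (-0.63), the beta subunit of the electron transfer flavoprotein. Across the 3 pairs 15 of the 32 genes were lower with NAC in all (31.9% of all genes) and 4 higher in all (29.1%), these being Pdk4, Ppara, Echs1 and Hadhb. At least 2-fold lower were 2 of 31 genes in live WT (4.18% of all genes), 11 of 32 in live Het (10.8%) and 5 of 30 in dead Het (3.91%). At least 2-fold higher was 1 gene in each pair (4.31%, 7.98% and 5.42%).

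Counts of Hadhb, Etfb, Acaa1a and Acaa1b are also uncertain, since 52.8%, 65.2%, 21.6% and 22.6% of their windows recur in other genes. The calls of the lung NAC comparison depended on single libraries. Leaving out each in turn gave from 0 to 10 of the 32, with 10 when the dead Null placebo library was left out (30% of all genes). None was called without live Het NAC (0.0073% of all genes), dead Het placebo (0.257%), live WT placebo (0%) or live Het placebo (0%, 30 tested). Without live WT NAC 1 was called (7.15%), and without dead Het NAC 4 were (15.6%). The share over all genes thus changed along with these counts. Other markers moved with treatment: the summed neutrophil and myeloid progenitor list was 192 to 261 CPM with NAC and 105 to 145 with placebo (8 genes, Elane under 1 CPM throughout), and the endothelial list (8 genes) 1840 to 1980 against 1442 to 1812. Hepatocyte markers were 53.1 to 199 against 20 to 194 CPM, muscle markers 175 to 519 against 300 to 517, and lung epithelial markers (10 genes each) 10268 to 16614 against 12800 to 14443. Their part in these changes was not tested.

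Live against dead in lung content called 0 of 32 genes and 0.0% of all genes. Unadjusted p was under 0.05 for 2 of the 32 (6.25%), against 490 in all (3.59%), and DESeq2 called 0 of the 32 and 19 in all. The median was 0, with 16 of 32 positive. Pdk4 had -1.44 (interval -2.55 to -0.32) and Vnn1, a pantetheinase, -0.8 (-1.47 to -0.12), both with an adjusted p of 0.999 by edgeR. Vnn1 had 40.9, 20.7, 34.7 and 9.61 CPM in live WT placebo, live WT NAC, live Het placebo and live Het NAC, and 43.8, 44.7 and 48.8 in dead Het placebo, dead Het NAC and dead Null placebo. It was the only gene of the 32 with every live library below every dead one (1.5% of all genes), and none had every live library above (1.19%).

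Dead Het against live Het in lung content gave 0 of 32 (0.0% of all genes; 3 of the 32 and 496 in all at an unadjusted p under 0.05; DESeq2, 0 and 20). Dead Null against dead Het gave 0 of 32 beside 0.6% of all genes, 8 of the 32 (25%) and 1841 in all (13.5%) at an unadjusted p under 0.05, and 0 and 218 by DESeq2. The largest of these was Acot2, at -1.31 (interval -1.98 to -0.63, adjusted p = 0.115 by edgeR), and the Null side was the single placebo library already described. Live Het against live WT gave 0 of 32 (0.0%; 1 of the 32 and 315 in all at an unadjusted p under 0.05; DESeq2, 0 and 6).

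Whether the live against dead difference was itself different between liver and lung content was tested over the 15 libraries. This fit had no term for pup group, so any pairing of tissues from the same pups was left out. None of 35 genes (0 of 35) was called, beside 0.0071% of all genes, with 3 of the 35 (8.57%) and 4.67% of all genes at an unadjusted p under 0.05 and 0 of the 35 and 7 in all by DESeq2. Those 3 were Vnn1 (1.62, interval 0.41 to 2.82), Angptl4 (-1.57, -2.92 to -0.22) and Ppara (0.87, 0.06 to 1.68), each with an adjusted p of 0.885 by edgeR.

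Taken by label, NAC and placebo libraries of a pup group mostly held different tissues. In live WT labelled lung, NAC was lung content and placebo liver content, and the median log2 difference of the genes, NAC over placebo, was -3.26. At least 2-fold lower were 30 of 35 genes (26.8% of all genes) and higher 1 (25.0%). The same order of contents gave a median of -3.76 in live Het labelled lung, with 34 of 36 lower (30.2%) and 1 higher (26.8%). In dead Het labelled liver it gave -2, with 29 of 35 lower (24.2%) and 2 higher (23.5%). Where the NAC library had liver content and the placebo library lung content, the medians were positive. In live WT labelled liver the median was 1.9, with 26 of 35 at least 2-fold higher (23.2%) and 3 lower (22.4%). In live Het labelled liver it was 2.55, with 29 of 35 higher (23.8%) and 2 lower (22.5%). In dead Het labelled lung it was 1.66, with 25 of 35 higher (24.0%) and 4 lower (23.1%), and in dead Null labelled liver 3.38, with 32 of 35 higher (27.4%) and 2 lower (24.4%). In dead Null labelled lung, liver content with NAC against the mixed placebo library, it was 0.91, with 16 of 35 higher (20.6%) and 3 lower (21.8%). In each of these pairs treatment and tissue content cannot be told apart.

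A wider list of 102 genes of fat metabolism outside the 36, in 8 groups, was read in the same fits. Live against dead called 0 of the 101 tested in liver content and 0 of the 87 tested in lung content, and NAC called 0 of 101 in liver content. In lung content NAC called 9 of 87 higher (7.92% of all genes) and 10 lower (5.97%). Coactivators and receptors had 5 of 12 higher and none lower, among them Ppargc1a, the PGC-1alpha coactivator of mitochondrial genes (1.53, adjusted p = 0.0186 by edgeR), and the lipin phosphatidate phosphatases Lpin1 (2.39, 0.0316) and Lpin2 (1.87, 0.0176), 3 genes chosen after their values were seen. Other mitochondrial oxidation genes had 6 of 16 lower and none higher, and other peroxisomal oxidation genes 2 of 17 lower. Fatty acid activation and carnitine genes had 3 of 12 higher and 1 lower, and lipolysis and droplet genes 1 of 10 higher and 1 lower. No gene was called among ketone body and leucine enzymes (8), brakes on fatty acid entry (5) and other electron and pyruvate entry genes (7).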

How the data were processed

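The authors trimmed adapters, used the Omicsoft Sequence Aligner on Array Studio with GRCm38 from Ensembl, and kept uniquely mapped reads. The deposited values are estimated counts per gene symbol (25054 entries), of which 6.5% to 8.24% per library were not whole. They were rounded to whole numbers, although the design had been written for whole counts. The libraries were made with a stranded mRNA kit. Whether counting used strand, and how reads were divided between genes, is not given in the sources used here, and 9 of the 36 genes have exons overlapped on the other strand. The submitters' processing notes name R 4.0.3 and edgeR 3.30.3.

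The 36 genes, the wider list of 102 and the marker lists were chosen with earlier results of these data known. The 36 genes were described by role, with values in each library for at least 1 gene per role and for called changes. Genes of the wider list were to be named by called change in liver-content live against dead, where none passed, so the 3 named were chosen after their values were seen. Libraries were grouped by pup group, treatment and status from the labels, and by Alb and Sftpc content. Factors came from TMM over 16 libraries. Genes whose mean reached 1 CPM over the libraries of a fit were tested with edgeR 4.0.16 (quasi-likelihood, R 4.3.3), with Benjamini-Hochberg adjusted p under 0.05 as a call. Terms were status and treatment, or pup group and treatment. DESeq2 1.42.0 was an alternative, beside other scalings, filters, terms and each library left out. The fits were first run on simulated counts with known changes. There all genes had the same dispersion and varied independently, unlike the genes in liver content, so that run does not check the fits under such variation. Differences between single libraries and class means used log2(CPM + 1). Windows of 100 bases shared between genes and gene positions came from GENCODE on GRCm38. Descriptive steps used Python 3.11.15, pandas 2.3.3 and numpy 2.4.6.

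Total counts were 7236865 to 16107749 per library, lower in lung content (7236865 to 11808823) than in liver content (14115802 to 16107749), which makes low genes less certain in lung content. Nothing in the labels numbers replicates, and the p-values measure only the spread between pooled libraries.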

Additional observations from a re-analysis of the deposited data

Results flagged for a closer look

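A library was singled out where its gap to the nearest of its group was large for the group's range (Dixon's test at 95%, groups of 4 to 10 libraries). Chance does this in about 1 of 20 groups, and 171 gene-by-group checks were made. The flags below, 6, 1 and 3 by library, are about as many as that rate gives. The 6 flags share 1 library, and the genes did not vary independently within liver content. In the dead liver-content libraries, the dead Null NAC library labelled liver was highest for Slc25a20 (101 CPM, others 38.2 to 42.6), Acadvl (501, others 196 to 214), Acadl (539, others 239 to 254), Etfb (369, others 171 to 188), Acaa1a (198, others 56.1 to 65) and Acaa1b (677, others 70.6 to 98.0). In the NAC liver-content libraries, the dead Null NAC library labelled lung was lowest for Ppara (89.2 CPM, others 144 to 159). In the placebo lung-content libraries, the dead Null library was lowest for Plin2 (53.2 CPM, others 95.9 to 101), Cpt1a (54.1, others 114 to 128) and Etfb (36.5, others 50.6 to 53.7).

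Echs1, the short-chain enoyl-CoA hydratase, moved in opposite directions in the 2 contents. NAC minus placebo within a pup group was -0.46 to -0.14 on the log2 scale in the 3 liver-content pairs and 0.33 to 0.72 in the 3 lung-content pairs. This difference between contents was not tested. Of all genes, 18.3% were lower with NAC in all 3 liver-content pairs and 29.1% higher in all 3 lung-content pairs. The share of genes doing both was not counted.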

How the results depend on the processing

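None of the 3 changes called in the main fits, all for lung-content NAC against placebo, reversed direction. Among estimates not called, 114 with libraries left out and 105 in other alternatives changed sign (0 taken as its own sign). Sign and call were both kept by 866 and 1348 estimates. In the lung-content comparison of NAC with placebo, 3 genes were called, against 8 with no filter beyond 1 count in any library, 8 with DESeq2 and 10 with pup group as the second term, and from 0 to 10 when each library was left out; over all genes library size alone gave 872 calls against 1897, and libraries left out gave 0 to 4091. The log2 fold change of Pdk4 ranged from 2.15 to 3.53 with libraries left out (called in 3 of 7 fits) and from 1.9 to 2.83 otherwise (11 of 11). Decr1 had -1.02 to -0.59 (called in 2 of 7) and Acot2 -1.21 to -0.77 (1 of 7), and each was called in 9 of the 11 other alternatives. DESeq2 called 2 genes in liver-content dead Null against dead Het, against 0. With libraries left out, live against dead and NAC against placebo in liver content gave 0 throughout, as did the difference between contents. At most 0.0753% of all genes were called in these fits. In lung content, calls for dead Het against live Het and dead Null against dead Het changed with the library left out. Calls over all genes changed too, and the fits that gained calls had a single library on a side. Liver content gave at least 2-fold higher values for 31 genes, 30 by median CPM and 27 by library size alone. The fit on libraries whose label and content were the same tissue could not be fitted for lung (3 libraries). The cause of these shifts was not tested. No analysis paired by replicate was possible because the labels number no replicates and each group has 1 library. Pup group as a term stood in for a replicate block, except in the test of the difference between contents, which had no such term. The depth and 7 or 8 libraries per class leave intervals of several-fold for genes such as Bdh1 and Cyp4a14.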
